A study of Homo sapiens with 10 samples.

Results

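The G1 regulators described here are 10 genes that govern whether a cell leaves G1 and begins to copy its DNA. They comprise the D-type cyclins CCND1, CCND2 and CCND3, the cyclin-dependent kinases CDK4 and CDK6, the kinase inhibitors CDKN2A and CDKN1B, and the retinoblastoma family members RB1, RBL1 and RBL2. They were found by matching the Ensembl identifiers of the count table to these symbols in GENCODE 44, and all 10 were among the 60448 genes listed. Gene expression was measured by RNA-seq in untreated, confluent monolayers of 2 human endothelial cell lines, with 5 independent replicates of each. The line EA.hy926 arose from fusion of umbilical vein endothelium with A549, a lung carcinoma line, and was grown in Advanced DMEM with 5% fetal bovine serum. The line HMEC-1 came from microvascular endothelium of the dermis transfected with the SV40 large T antigen. Its medium was MCDB 131 with 10% serum, to which epidermal growth factor (10 ng/mL) and hydrocortisone (1 µg/mL) were added. Each group is 1 line, and the effect of the line cannot be told apart from that of its medium. The libraries held 34846046 to 39899324 counts in EA.hy926, and those of HMEC-1 held 33391640 to 43877224.

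D-type cyclins bind CDK4 and CDK6, and the active kinases phosphorylate the retinoblastoma proteins. Unphosphorylated retinoblastoma proteins hold E2F transcription factors in check, so their phosphorylation releases genes needed for DNA replication. CDKN2A encodes p16, an inhibitor of CDK4 and CDK6, and, from another start and reading frame, ARF, which restrains the ubiquitin ligase MDM2. CDKN1B encodes p27, an inhibitor of cyclin E and cyclin A kinases that also binds cyclin D kinases. The large T antigen of SV40 binds the retinoblastoma proteins. Its own transcript was not analysed here.

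Promoters, taken as 250 bases before to 50 bases after a gene's start, were read from a table of RefSeq sequences that holds 13 entries for 8 of the 10 genes. CDKN2A is shown because it differed most between the lines and has separate starts for ARF, upstream, and p16, downstream. RBL1 is shown because its entry was the only one of the 13 with an E2F-type motif. The entry of RB1 lies inside the gene, at chr13:48476200-48476499, so the start of RB1 was not searched. The sequences are from GRCh38.p14, minus strand, 5′ to 3′, and the capitals mark GGGCGG (the GC box) in CDKN2A and E2F-type motifs in RBL1.
CDKN2A, upstream start, chr9:21995275-21995574: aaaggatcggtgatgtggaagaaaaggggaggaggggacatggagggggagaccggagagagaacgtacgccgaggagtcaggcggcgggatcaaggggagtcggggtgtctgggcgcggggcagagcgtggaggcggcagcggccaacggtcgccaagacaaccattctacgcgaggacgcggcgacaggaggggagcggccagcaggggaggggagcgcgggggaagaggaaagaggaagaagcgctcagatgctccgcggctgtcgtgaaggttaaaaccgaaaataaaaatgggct
CDKN2A, downstream start, chr9:21974808-21975107: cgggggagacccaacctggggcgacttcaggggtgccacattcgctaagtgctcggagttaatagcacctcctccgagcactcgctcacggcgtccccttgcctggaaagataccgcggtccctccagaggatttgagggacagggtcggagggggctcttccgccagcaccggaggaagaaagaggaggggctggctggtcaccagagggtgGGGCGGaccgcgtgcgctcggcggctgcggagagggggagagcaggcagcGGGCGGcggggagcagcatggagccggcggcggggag
RBL1, chr20:37095948-37096247: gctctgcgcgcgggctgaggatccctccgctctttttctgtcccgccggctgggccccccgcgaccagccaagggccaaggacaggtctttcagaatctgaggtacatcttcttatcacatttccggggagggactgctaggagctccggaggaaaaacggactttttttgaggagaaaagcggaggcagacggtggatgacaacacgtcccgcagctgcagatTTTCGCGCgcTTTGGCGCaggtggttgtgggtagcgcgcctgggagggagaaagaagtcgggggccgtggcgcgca

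The motifs were sought on both strands. TTTCCCGC, TTTGGCGC, TTTCGCGC or TTTGCCGC was present in 3.31% of all 35116 promoters listed, and in RBL1 the motifs TTTCGCGC and TTTGGCGC lay 2 bases apart. GGGCGG was present in 45.0% of all promoters and in 7 of the 13 entries, near that share. The 7 belong to CCND3, CDK4, CDK6, CDKN2A, CDKN1B and RBL2. In CDKN2A it was found at the downstream start (2 matches) and not at the upstream one. A match describes the letters of the window and not a bound site.

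Expression is given as CPM, the counts after scaling each library to a common size with TMM factors, as mean ± SD of the 5 libraries of a line. Differences are given as log2 fold change (log2FC), EA.hy926 minus HMEC-1, from the quasi-likelihood test of edgeR with Benjamini-Hochberg adjustment over the 16310 genes that passed the filter on low counts. A gene was called where the adjusted p was under 0.05 and the absolute log2FC was over 1. Of the 10 G1 regulators, 9 passed the filter and CCND2 did not. The 4 called were CCND1, higher in EA.hy926, and CCND3, CDKN2A and RB1, higher in HMEC-1, of which CDKN2A passed the filter through HMEC-1 alone. Of all genes tested, 35.5% were called, 19.1% higher in EA.hy926 and 16.4% higher in HMEC-1, so the members' count was not far from the background. At an adjusted p under 0.05 alone, CDK4 was also higher in EA.hy926, CDK6, CDKN1B and RBL1 were also higher in HMEC-1, and RBL2 was not past the threshold. This threshold was passed by 85.8% of all genes tested, 42.6% with a higher level in EA.hy926 and 43.3% with a higher level in HMEC-1. The CPM ranges of the lines did not overlap for 8 of the 9 tested members, and for 77.4% of all genes tested. In bulk RNA, fewer cells with a transcript and less of it per cell cannot be told apart.

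**Figure D1:**
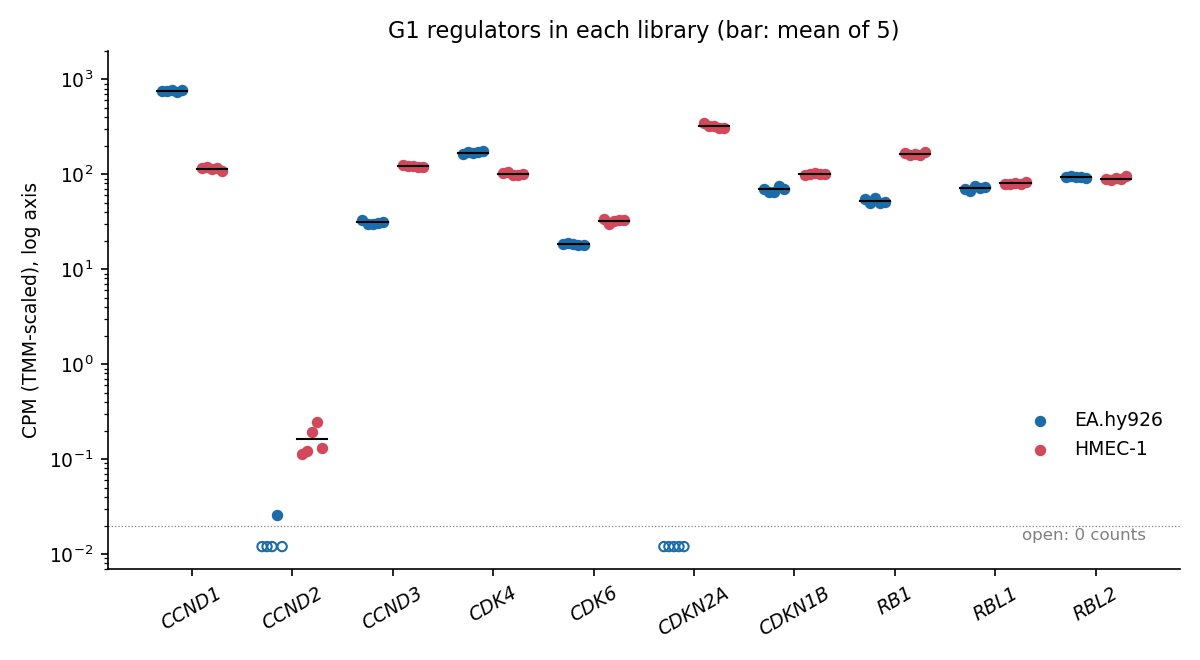
Expression of the 10 G1 regulators in each library. The vertical axis is CPM on a log scale, each point is 1 library (blue, EA.hy926; red, HMEC-1), black bars are means of 5 libraries, and open circles at the bottom are libraries with 0 counts. CCND1 lies near 761 CPM in EA.hy926 and near 114 in HMEC-1, CDKN2A has 0 counts in every EA.hy926 library, and only RBL2 of the tested genes has overlapping ranges.

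The D-type cyclins differed in opposite directions. CCND1 was higher in EA.hy926 and CCND3 in HMEC-1, while CCND2 was scarce, with at most 10 counts in any library. Cyclin D1, encoded by CCND1 (ENSG00000110092, GRCh38 chromosome 11, 69641156 to 69654474, plus strand), is the D-type cyclin best known for induction by growth factors. Its level was 762, 762, 777, 729 and 773 CPM in EA.hy926 replicates 1 to 5. In HMEC-1 it was 116, 119, 114, 117 and 107 CPM. The lines were thus far apart and each was narrow, with means of 761 ± 18.7 and 114 ± 4.26 CPM. The log2FC of CCND1 was 2.73 (SE 0.029, adjusted p = 1.35e-25, edgeR), a 6.65-fold higher level in EA.hy926, and it stayed between 2.70 and 2.75 with any library left out. LTO1, which shares 10.4% of the exonic bases of CCND1, differed by a log2FC of 0.47.

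CCND3 (ENSG00000112576, chromosome 6, 41934934 to 42050357, minus strand) encodes cyclin D3. It was at 33.2, 29.9, 30.1, 31.0 and 31.4 CPM in the EA.hy926 libraries. The HMEC-1 libraries had 126, 121, 122, 120 and 120 CPM. Every HMEC-1 library was above every EA.hy926 library, with a 3.91-fold higher level in HMEC-1 (log2FC -1.97, SE 0.031, adjusted p = 8.49e-23, edgeR). CCND2 (ENSG00000118971, chromosome 12, 4269771 to 4305353, plus strand), the gene of cyclin D2, had counts of 0, 0, 0, 1 and 0 in EA.hy926 and of 4, 5, 9, 10 and 5 in HMEC-1. Summed over the libraries of a line and scaled for their sizes, the HMEC-1 level was 29.7 times that of EA.hy926, with an exact 95% interval from 4.97 to 1208 that covers counting error only. At 0.162 CPM in HMEC-1, the transcript was detectable but scarce. Exons of other genes cover 13.8% of the exonic bases of CCND2.

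CDK4 and CDK6, the catalytic partners of the D-type cyclins, also differed in opposite directions, both by less than the fold change threshold. CDK4 (ENSG00000135446, chromosome 12, 57747727 to 57756013, minus strand) was at 165, 170, 167, 171 and 174 CPM in EA.hy926. In HMEC-1 it was at 104, 106, 97.2, 98.9 and 102 CPM. All EA.hy926 libraries were higher, and CDK4 had a log2FC of 0.74 (SE 0.028, adjusted p = 2.71e-16, edgeR), or 1.67-fold. Of the CDK4 exonic bases, 44.2% are shared with TSPAN31 on the opposite strand. Whether strand was used in counting is not given in the sources used here, so the CDK4 count is uncertain to that extent. CDK6 (ENSG00000105810, chromosome 7, 92604921 to 92836573, minus strand) was at 18.5, 18.8, 18.3, 18.0 and 17.9 CPM in EA.hy926. In HMEC-1 it was at 34.0, 30.3, 32.3, 32.9 and 32.7 CPM, which is 1.77-fold higher (log2FC -0.83, SE 0.041, adjusted p = 3.39e-14, edgeR) without overlap.

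Among the kinase inhibitors, CDKN2A was abundant in HMEC-1 and had no count in EA.hy926. CDKN2A (ENSG00000147889, chromosome 9, 21967752 to 21995301, minus strand) had 12025, 13317, 15014, 12583 and 11621 counts in HMEC-1, or 322 ± 15.5 CPM. All 5 EA.hy926 libraries had 0 counts. Against the 3 counts per library taken as the smallest detectable number, which is 0.0781 to 0.0904 CPM in EA.hy926, CDKN2A was at least 3558-fold higher in HMEC-1. It passed the filter on low counts through HMEC-1 alone, so its call adds nothing to these counts. The transcripts of p16 and ARF share exons, so the gene-level count does not separate the starts whose sequences are shown above. Exons of other genes, mainly of CDKN2B-AS1, cover 15.3% of its exonic bases, and the count of CDKN2B-AS1 itself was 0 in every EA.hy926 library and 31 to 66 in HMEC-1.

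CDKN1B (ENSG00000111276, chromosome 12, 12685498 to 12722369, plus strand) was present at similar orders of magnitude in both lines. It was at 70.4, 65.8, 65.5, 74.7 and 70.6 CPM in EA.hy926. The HMEC-1 libraries had 98.2, 100.2, 104.3, 100.2 and 101.3 CPM. The ranges did not overlap, and CDKN1B was 1.45-fold higher in HMEC-1 (log2FC -0.54, SE 0.034, adjusted p = 2.18e-12, edgeR).

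The RB family differed in its leading member. RB1 (ENSG00000139687, chromosome 13, 48303744 to 48599436, plus strand), the retinoblastoma gene, was at 54.8, 50.1, 55.9, 50.4 and 51.1 CPM in EA.hy926. In HMEC-1 it was at 167, 161, 165, 160 and 171 CPM. RB1 was 3.14-fold higher in HMEC-1 (log2FC -1.65, SE 0.033, adjusted p = 4.29e-21, edgeR), with a gap between the lines far wider than the spread within them. RBL1 (ENSG00000080839, chromosome 20, 36996349 to 37095997, minus strand), which encodes p107 and is itself known as an E2F target, was at 70.7, 66.3, 75.5, 70.9 and 74.1 CPM in EA.hy926. The HMEC-1 libraries had 78.4, 79.0, 80.0, 79.9 and 82.9 CPM, just above the highest EA.hy926 library (log2FC -0.16, SE 0.033, adjusted p = 0.000104, edgeR). RBL2 (ENSG00000103479, chromosome 16, 53433977 to 53491648, plus strand) encodes p130, the family member associated with quiescent cells. It was at 94.6, 94.96, 94.3, 93.8 and 91.4 CPM in EA.hy926 and at 88.3, 87.6, 90.9, 89.7 and 94.9 CPM in HMEC-1. The ranges overlapped, with a log2FC of 0.06 (SE 0.027, adjusted p = 0.064, edgeR). Exons of other genes cover 16.4% of the exonic bases of RBL2. Scaling by library totals moved the log2FC of all genes by a median of -0.13 and turned RBL2 to -0.08 (adjusted p = 0.0108), so neither its direction nor its call is settled. The directions of the other 8 tested members were the same under both scalings.

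**Figure D2:**
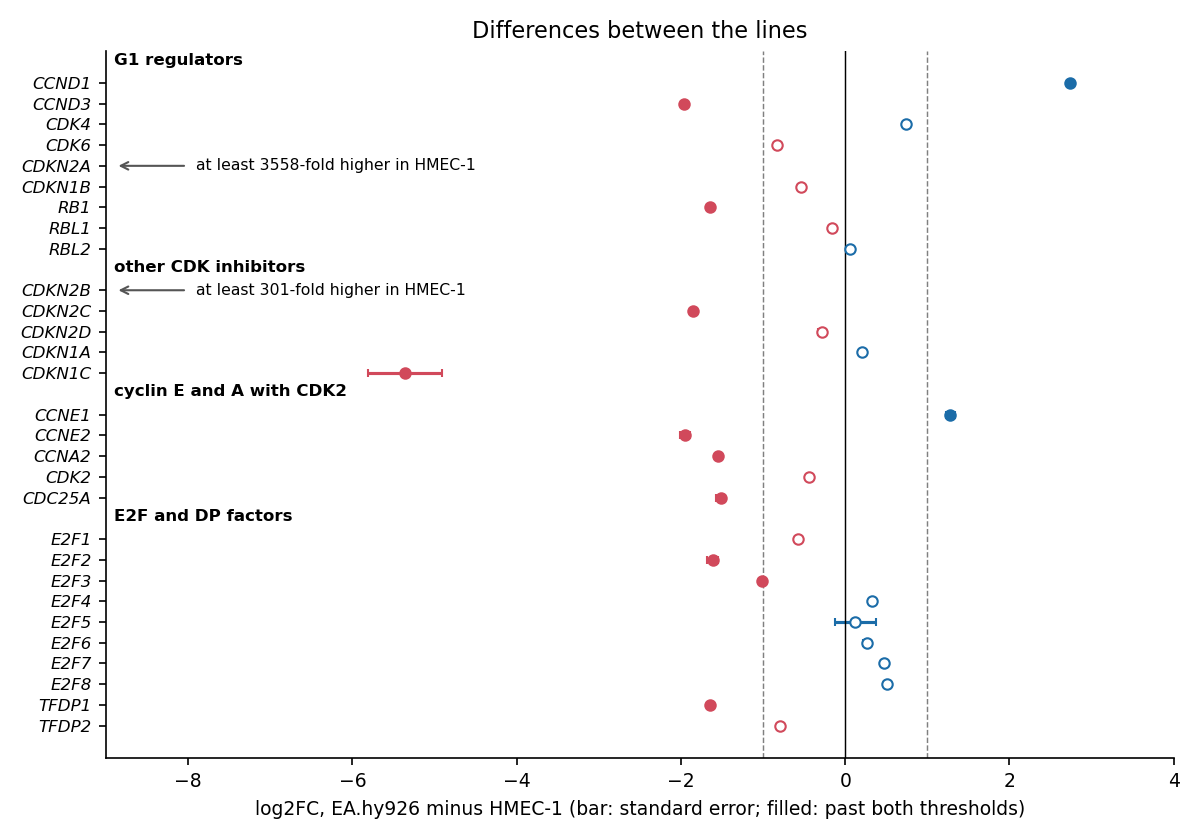
Differences of the G1 regulators and of their nearest partners between the lines. The horizontal axis is the log2FC (EA.hy926 minus HMEC-1) from edgeR, bars are standard errors, filled points passed both thresholds (dashed lines at -1 and 1), and arrows stand for genes without a count in EA.hy926. CCND1, at 2.73, is the highest of the genes shown, while CDKN2A and CDKN2B have only a lower bound of 3558-fold and 301-fold.

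Because reads scale with transcript length, levels of different genes were compared as CPM per kb of annotated exon. In EA.hy926 the order was led by CCND1 (160 ± 3.93 CPM per kb) and CDK4 (54.7 ± 1.16), followed by RBL1, RBL2, RB1, CDKN1B and CCND3, between 12.0 and 5.40, and by CDK6 at 1.496. The libraries of RBL1 and RBL2 overlapped, as did those of RB1 and CDKN1B. In HMEC-1 the order was led by CDKN2A (82.8 ± 4.00 CPM per kb) and CDK4 (32.8 ± 1.13), followed by RB1, CCND1 and CCND3, between 25.6 and 21.1, then RBL1, RBL2 and CDKN1B, between 13.4 and 10.9, and CDK6 at 2.65. Neighbours in that order with overlapping libraries were RB1 and CCND1, and RBL2 and CDKN1B. CDKN2A was thus the most abundant of the 10 genes in HMEC-1 and was undetected in EA.hy926. The order in between depends on the length used. With the Ensembl canonical transcript in place of all annotated exons, a choice added after seeing the data, CCND3 (60.1 CPM per kb) passed CDK4 (54.4) and CDKN1B (41.8) passed RB1 (34.6) in HMEC-1, and CDKN1B (28.8) came after CCND1 and CDK4 in EA.hy926, while CDKN2A in HMEC-1 and CCND1 in EA.hy926 still led.

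The make-up of each family followed from these levels. CCND1 made up 96.7% ± 0.162 of the summed cyclin D level per kb in EA.hy926 and 53.2% ± 0.890 in HMEC-1, where CCND3 held 46.8% ± 0.896. With canonical transcript lengths, CCND1 held 92.1% in EA.hy926 and 31.0% in HMEC-1, so which of the pair led in HMEC-1 depended on the length used. The summed cyclin D level was 165 ± 3.93 CPM per kb in EA.hy926 and 45.2 ± 1.09 in HMEC-1, and with canonical lengths the sums were 195 ± 4.42 and 87.1 ± 1.72. CDK4 held 97.3% ± 0.0954 of the summed CDK4 and CDK6 level in EA.hy926 and 92.5% ± 0.423 in HMEC-1, and the sums were 56.2 ± 1.14 and 35.4 ± 1.10 CPM per kb. RB1 held 25.7% ± 0.715 of the RB family level in EA.hy926 and 51.1% ± 0.562 in HMEC-1. The RB family sum was the one that was higher in HMEC-1, at 50.2 ± 1.23 against 31.7 ± 0.883 CPM per kb. No library of one line reached the range of the other in these shares or sums.

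**Figure D3:**
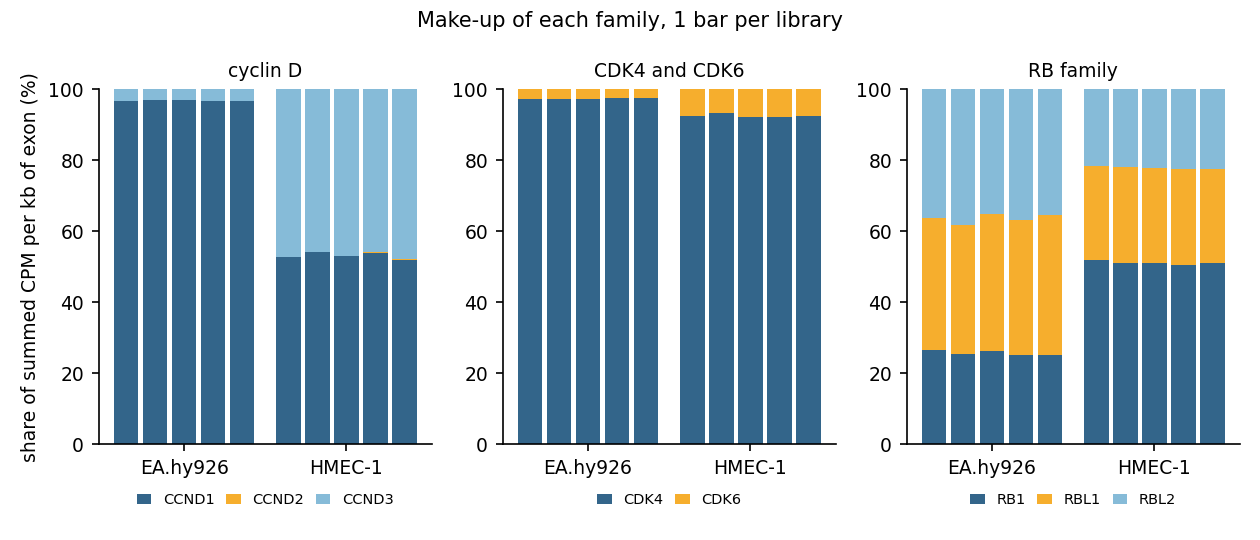
Make-up of the cyclin D, CDK4 and CDK6, and RB families. Each bar is 1 library and the vertical axis is the share of the family's summed CPM per kb of exon, in percent. CCND1 fills 96.7% of the cyclin D level in EA.hy926 and 53.2% in HMEC-1, and RB1 holds 25.7% and 51.1% of the RB family level.

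Of the other CDK inhibitors, all 5 were tested and 3 were called, each higher in HMEC-1. Over all genes tested, 16.4% were called in that direction. CDKN2B and CDKN1C passed the filter through HMEC-1 alone, and with at least 10 counts required in all libraries 1 was called. CDKN2B, whose product p15 inhibits CDK4 and CDK6, had 0 counts in all EA.hy926 libraries and 27.2 ± 0.884 CPM in HMEC-1, at least 301-fold higher. CDKN2C, the gene of p18 in the same INK4 family, was at 28.6 ± 1.05 CPM in EA.hy926 and 103 ± 2.13 in HMEC-1 (log2FC -1.85). CDKN1C, which encodes p57, was scarce, with counts of 3, 0, 0, 0 and 1 in EA.hy926 and of 31 to 51 in HMEC-1. CDKN2D was higher in HMEC-1 by less than the fold threshold (log2FC -0.28), and CDKN1A, the gene of p21, was the one inhibitor of these 5 that was higher in EA.hy926 (266 ± 6.69 against 230 ± 6.53 CPM), with a log2FC of 0.21 that was 0.07 when scaled by library totals.

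The cyclins and the kinase that act after the D-type cyclins were mostly higher in HMEC-1. Of 6 genes listed, 5 were tested and 4 called, 1 higher in EA.hy926 and 3 higher in HMEC-1, beside 35.5% called over all genes tested. At an adjusted p under 0.05 alone, 4 of the 5 were higher in HMEC-1, as were 43.3% of all genes tested. Cyclin E, which activates CDK2 at the entry into S phase, differed by gene. CCNE1 was higher in EA.hy926 (16.8 ± 1.14 against 6.94 ± 0.188 CPM, log2FC 1.28), whereas CCNE2 was higher in HMEC-1 (7.46 ± 0.747 against 29.0 ± 1.63 CPM, log2FC -1.96), with 37.1% of its exonic bases shared, mainly with INTS8. CCNA2, the cyclin A of proliferating somatic cells, was higher in HMEC-1 (89.0 ± 2.92 against 260 ± 5.81 CPM, log2FC -1.55), as was CDC25A, a phosphatase that activates CDK2 (log2FC -1.52). CDK2 itself had a log2FC of -0.44. CCNA1, not tested, had no count in EA.hy926 and 9 to 23 counts in HMEC-1. Of the CDK-activating kinase, which phosphorylates these kinases, none of 3 subunits was called, beside 35.5% of all genes tested. CDK7 was highest (log2FC 0.66) and CCNH lowest (log2FC -0.17).

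The E2F and DP factors, some of which bind the RB family, were all tested, and 3 of 10 were called, each higher in HMEC-1. Of all genes tested, 35.5% were called and 16.4% were called higher in HMEC-1, so the count was not far from the background. One of the 3 calls is at the threshold, as E2F3 had a log2FC of -0.99 without EA.hy926 replicate 5 and the list then had 2 called, which was also its count in a test against a log2FC of 1 (glmTreat of edgeR). The 3 genes were E2F2 (8.36 ± 0.974 against 25.7 ± 0.997 CPM, log2FC -1.62), E2F3 (25.5 ± 1.15 against 51.5 ± 1.14 CPM, log2FC -1.02) and TFDP1, the main dimerization partner of the E2Fs (114 ± 3.65 against 355 ± 3.48 CPM, log2FC -1.64). E2F1 (log2FC -0.57) and TFDP2 (log2FC -0.79) were higher in HMEC-1 by less than the fold threshold. The factors classed as activators, E2F1, E2F2 and E2F3, thus had higher levels in HMEC-1. Of the remaining E2Fs, classed as repressors, all but E2F5 were higher in EA.hy926 by small differences. Their log2FC values were 0.33 for E2F4, 0.27 for E2F6, 0.47 for E2F7 and 0.51 for E2F8, at adjusted p-values of at most 1.98e-05 (edgeR). These directions were the same when scaled by library totals. At an adjusted p under 0.05, 42.6% of all genes tested were higher in EA.hy926 and 43.3% in HMEC-1, and the split by class was not tested. E2F5, at 0.587 ± 0.178 and 0.543 ± 0.137 CPM, was not past the threshold (adjusted p = 0.652) and its direction changed with the scaling.

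The MuvB core with p130 forms the repressive DREAM complex and with MYBL2 activates mitotic genes. In this list 6 of 6 genes were tested and 3 were called (50.0%, against 35.5% of all genes tested), higher in HMEC-1. The count was 2 without EA.hy926 replicate 1, where LIN9, named for this after its values were seen, had a log2FC of -0.99, and 2 with glmTreat. MYBL2 had the lowest log2FC of the list (77.4 ± 4.41 against 346 ± 2.57 CPM, log2FC -2.16) and RBBP4 the highest (log2FC -0.30). Of 12 genes for ubiquitin ligases that act on G1 regulators, 1 was called (8.33%, against 35.5% of all genes tested). It was SKP2, the F-box protein that marks p27 for destruction (28.8 ± 1.03 against 75.7 ± 2.35 CPM, log2FC -1.40). The highest of that list was SKP1 (log2FC 0.81). MDM2, the ligase restrained by ARF, was called, at 370 ± 12.0 CPM in EA.hy926 and 96.1 ± 4.50 in HMEC-1 (log2FC 1.94, adjusted p = 1.88e-22, edgeR). Its relative MDM4 had a log2FC of -0.35.

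Downstream of E2F, genes for DNA replication and mitosis were mostly higher in HMEC-1, by modest amounts. With TMM factors smaller shares of both lists were called than the 35.5% of all genes tested. With library totals, where 5894 of the 16310 genes tested were called, neither share was smaller. Of 19 DNA replication genes, 4 were called (7 when scaled by library totals) and 17 had an adjusted p under 0.05 with a higher level in HMEC-1, a direction that 43.3% of all genes tested showed at that threshold. Their median log2FC was -0.61. CDC45, a subunit of the replicative helicase, was the lowest (36.04 ± 2.13 against 84.2 ± 0.690 CPM, log2FC -1.22) and PCNA, the polymerase clamp, was the only one higher in EA.hy926 past that threshold (log2FC 0.27). Of 15 mitosis genes, 4 were called (6 when scaled by library totals) and 14 had an adjusted p under 0.05 with a higher level in HMEC-1, with a median log2FC of -0.71. CCNB2, a mitotic cyclin, was the lowest (log2FC -1.26) and TPX2, a spindle assembly factor, the highest (log2FC 0.13, adjusted p = 5.64e-05, edgeR), with no difference left when scaled by library totals (log2FC -0.0034). The proportion of cycling cells was not measured, and its part in these differences was not tested.

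**Figure D4:**
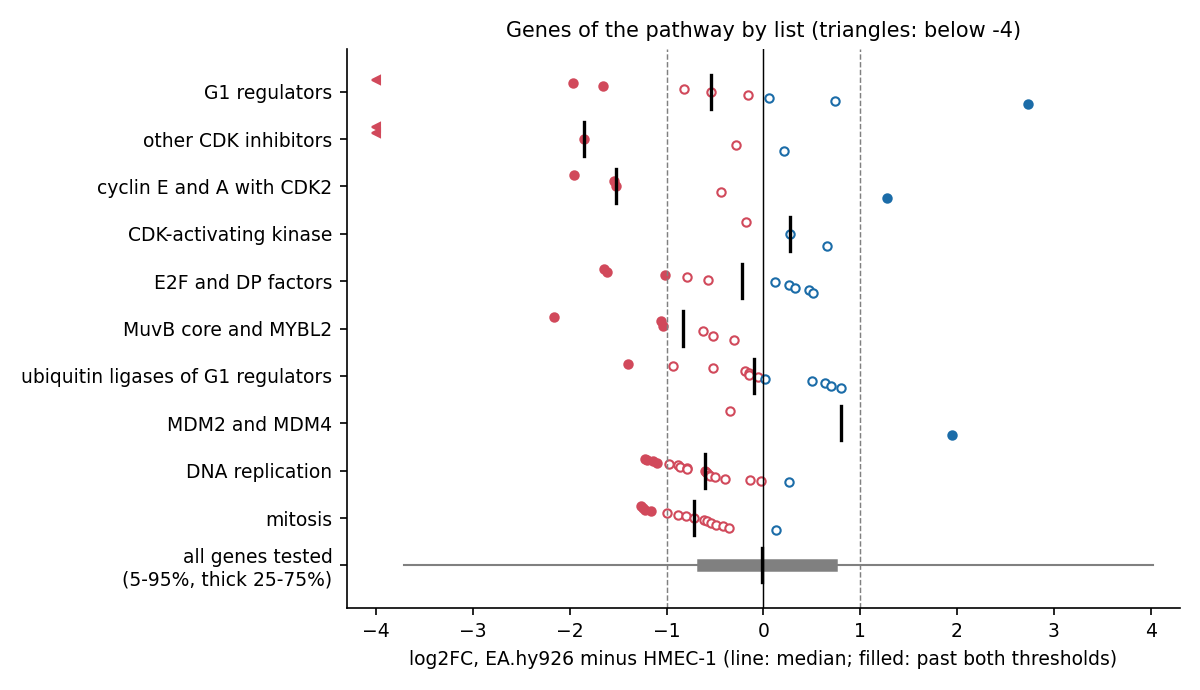
Log2FC (EA.hy926 minus HMEC-1) of the genes tested in each pathway list. Each point is a gene, filled where it passed both thresholds, vertical lines are medians, and the grey bar gives the 5th to 95th (thin) and 25th to 75th (thick) percentiles of all 16310 genes tested. The medians of DNA replication (-0.61) and mitosis (-0.71) lie to the left of the median of all genes (-0.01).

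Genes near the G1 regulators on the chromosome were compared with them, using the 5 nearest protein-coding genes tested on either side. Distances are between the lowest coordinates of the genes, whatever their strand. Around CDK4, all 10 neighbours, whose lowest coordinates lie within 173 kb, were higher in EA.hy926 and 9 were called, with a median log2FC of 1.65, more than the 0.74 of CDK4 itself. Of all genes tested, 19.1% were called higher in EA.hy926, and 42.6% were higher there at an adjusted p under 0.05. The most changed was CYP27B1, the hydroxylase that activates vitamin D, at 6.005 ± 0.583 CPM in EA.hy926 and 0.609 ± 0.140 in HMEC-1 (log2FC 3.30). OS9, an endoplasmic reticulum lectin 53.9 kb away and the most abundant of the 10, was at 350 ± 11.4 and 165 ± 4.54 CPM (log2FC 1.08), and TSFM was the one not called (log2FC 0.24). Some of these genes overlap each other or CDK4, and their counts are then not independent. OS9 and TSFM were named after their values were seen.

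The neighbours of RB1 and CCND3 mostly had the direction of these genes, while their counts of calls were near the 35.5% of all genes tested. Of the 10 beside RB1, 9 had a higher level in HMEC-1 at an adjusted p under 0.05 (43.3% of all genes tested) and 3 were called, with a median log2FC of -0.72 and CAB39L, a scaffold of the kinase LKB1, the most changed (log2FC -2.09). Of the 10 beside CCND3, 9 had a higher level in HMEC-1 at that threshold and 4 were called, with a median of -0.78, and C6orf132 the most changed (0.00603 ± 0.0135 against 35.2 ± 1.14 CPM). C6orf132 and GUCA1B, with at most 2 counts in an EA.hy926 library, passed the filter on low counts through HMEC-1 alone. Their calls thus add nothing to these counts, and GUCA1B was named after its values were seen. Beside CDKN1B the neighbours mostly differed the other way from the gene itself, with 8 of 10 at a positive log2FC and a median of 0.74. Of these 8, DDX47 was not past the adjusted p threshold (adjusted p = 0.143, edgeR). There, 4 were called higher in EA.hy926 and 2 higher in HMEC-1, beside 19.1% and 16.4% of all genes tested. GPRC5D was the most changed there (log2FC 2.97). Around CCND1, CCND2, CDK6, RBL1 and RBL2, 1 to 3 of the 10 neighbours were called, and the medians were 0.03, 0.14, -0.30, 0.49 and 0.03. Those with the largest fitted log2FC were MRGPRF beside CCND1 (no count in EA.hy926, 1.80 ± 0.346 CPM in HMEC-1, so that the fitted value is no measured fold), DYRK4 beside CCND2 (log2FC 6.83), SAMD9L beside CDK6 (log2FC 3.74), SRC beside RBL1 (log2FC 1.45) and CHD9NB beside RBL2 (log2FC 3.91). MYEOV, also beside CCND1 and named after its values were seen, was counted in both lines, at 158 ± 6.43 CPM in EA.hy926 and 0.329 ± 0.141 in HMEC-1 (log2FC 8.91). In HMEC-1, MYEOV had 7 to 18 counts, DYRK4 2 to 10, and AKAP3, beside CCND2 and also named after its values were seen, 3 to 15. These genes passed the filter through EA.hy926 alone and MRGPRF through HMEC-1 alone, so their calls add nothing to these counts.

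Of the 10 neighbours of CDKN2A, 6 were called, 3 higher in each line, with a median log2FC of 0.07. Over all genes tested, 35.5% were called. Apart from DMRTA1, the called neighbours had at most 9 counts in any library of the line where they were lower. They passed the filter on low counts through the other line alone, so their calls add nothing to these counts. Around CDKN2A, genes without counts in EA.hy926 lay together. MTAP, which salvages methylthioadenosine and lies at a distance of 165 kb on the side of lower coordinates, had 1658 to 2157 counts in HMEC-1 and 0 to 3 in EA.hy926. CDKN2B, the neighbour with the largest fitted log2FC (a bound of at least 301-fold), lies at 35.2 kb on the side of higher coordinates. Of the genes within 500 kb with at least 10 counts in a library, the 4 noncoding ones from MTAP to just past CDKN2B had no count in any EA.hy926 library and at most 66 in HMEC-1. Farther out on that side, the noncoding ENSG00000236921, at 236 kb, had 0 to 2 counts in HMEC-1 and 35 to 48 in EA.hy926, and DMRTA1, at 479 kb, had 103 to 150 counts in HMEC-1 and 332 to 383 in EA.hy926. On the other side, IFNE, at a distance of 487 kb, had 1 to 7 counts in HMEC-1 and 15 to 33 in EA.hy926, and the noncoding MIR31HG had 10 to 20 and 99 to 115. The genes flanking the stretch were thus counted in EA.hy926. MTAP, ENSG00000236921, DMRTA1, IFNE, MIR31HG and CDKN2B-AS1 were named after their values were seen, and whether the DNA of this stretch is present in EA.hy926 was not tested.

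**Figure D5:**
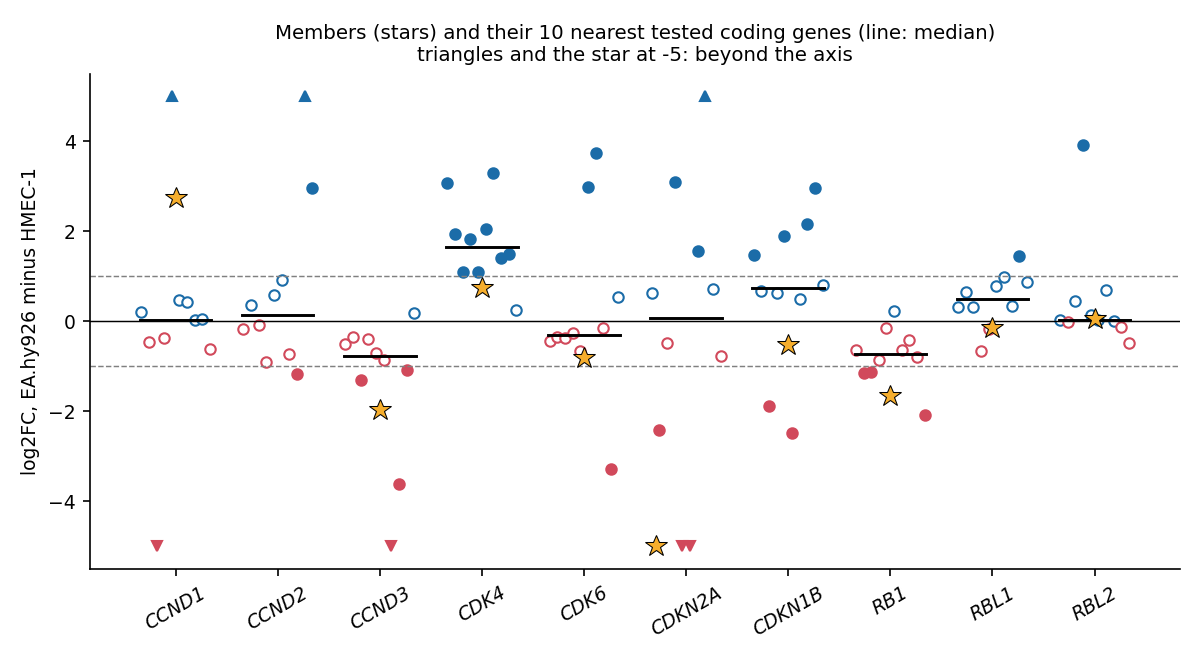
Log2FC (EA.hy926 minus HMEC-1) of each tested G1 regulator (star) and of its 10 nearest tested protein-coding genes (circles, in chromosomal order from left to right, filled where both thresholds were passed). Black lines are the medians of the neighbours, and triangles and the star of CDKN2A at -5 stand for values beyond the axis. The neighbours of CDK4 all lie above 0, with a median of 1.65, and 9 of 10 neighbours each of RB1 and CCND3 lie below 0.

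The genes whose expression across the 10 libraries was most like that of CCND1 and CDKN2A, the tested members with the largest differences, were found by the root mean square difference in log2 CPM over protein-coding genes. For CCND1 these were WWTR1 (0.215; 631 ± 40.6 against 123 ± 1.56 CPM), a transcriptional coactivator of the Hippo pathway, CTSC (0.239; 728 ± 15.9 against 144 ± 5.88 CPM), a lysosomal protease, and TCEAL9 (0.259; 599 ± 34.7 against 112 ± 4.79 CPM). For CDKN2A these were SULF1 (0.349; no count against 230 ± 8.52 CPM), an extracellular sulfatase, AEBP1 (0.715; 0.0276 ± 0.0277 against 196 ± 5.12 CPM) and CNR1 (0.993; no count against 121 ± 3.64 CPM), a cannabinoid receptor.

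Markers of cell types were read in the same libraries. The 8 endothelial markers summed to 1399 to 1430 CPM in HMEC-1 and 3975 to 4585 CPM in EA.hy926, with PECAM1 the most abundant in EA.hy926 (1633 CPM) and CDH5 in HMEC-1 (441 CPM), and each of the 8, VWF and CDH5 included, was detected in every library. The 5 epithelial markers summed to 124 to 141 and 680 to 738 CPM, led by KRT8 in EA.hy926 (546 CPM) and KRT18 in HMEC-1 (108 CPM), while KRT19 went the other way (0.132 against 3.56 CPM, log2FC -4.71) and CDH1, the defining epithelial cadherin, had 0 counts in EA.hy926 and at most 1 in an HMEC-1 library. The 4 fibroblast and mural markers summed to 472 to 501 CPM in HMEC-1 and 0.911 to 1.57 CPM in EA.hy926, led by COL1A1 in HMEC-1 (358 CPM) and PDGFRB in EA.hy926 (0.931 CPM), with PDGFRA at 2 to 7 counts in HMEC-1 and none in EA.hy926. The 2 leukocyte markers stayed below 0.662 CPM in every library. These sums moved with the lines, and hence with every G1 regulator called, and their part in the differences was not tested. Between replicates the G1 regulators were steady. Over the 8 members that reached 100 counts in all libraries, the coefficient of variation was 1.84% to 4.23% in HMEC-1 and 1.49% to 5.51% in EA.hy926, beside medians of 3.56% and 4.27% over 10270 genes at that depth.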

How the data were processed

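Untreated monolayers of both lines (5 replicates each) were profiled by RNA-seq. The authors selected mRNA with oligo(dT), aligned reads to GRCh38 with HISAT2, and deposited raw counts per gene. The paper names HTSeq for the counting and the submitters' processing notes name fastp, featureCounts and DESeq2. Annotation release, strand setting and versions are not given in the sources used here.

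Identifiers were matched to GENCODE 44 (56434 of 60448), which gave symbols, coordinates and exon lengths, and shared exonic bases were computed on either strand with bedtools 2.31.1. In edgeR 4.0.16 (R 4.3.3), filterByExpr removed low counts (minimum count 10, minimum total 15), TMM set the scale, and the quasi-likelihood fit and test (glmQLFit, then glmQLFTest) used no covariates. Library totals of 33391640 to 43877224 make 3 counts 0.0651 to 0.0904 CPM, and this floor covers counting error only. All 10 members were named, with every gene of 4 pathway lists (other CDK inhibitors, cyclin E and A with CDK2, E2F and DP factors, MDM2 and MDM4), the extremes of the other pathway lists, the most changed neighbour of each member, and the 3 protein-coding genes most like CCND1 and CDKN2A, leaving out chromosome Y. Results for 2 genes of the lists are left out of the text, counts and plots by list. Members and lists were chosen with earlier results of these data known. Alternatives were DESeq2 1.42.0, limma-voom (limma 3.58.1), other filters, RLE factors, library totals, a replicate block, glmTreat, other lengths, 3 neighbours on either side, and each library left out. The tests recovered the known changes in simulated counts. These were set in well-counted genes at a common dispersion, with far fewer genes changed than were called here, so genes with few counts were not covered.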

Additional observations from a re-analysis of the deposited data

Results flagged for a closer look

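Of 83 sets of 5 libraries examined (1 gene in 1 line), 2 held a library far from the other 4 by Dixon's test at the 95% level, where chance gives about 1 in 20. CCND2 in EA.hy926 had 0.0260 CPM in replicate 4, which is 1 count, and 0 in the other libraries. E2F2 in EA.hy926 had 10.1 CPM in replicate 5 (374 counts), beside 7.74 to 8.20 CPM in the others, and every EA.hy926 library stayed below the lowest HMEC-1 library of 24.6 CPM.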

How the results depend on the processing

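CCND1, CCND3 and RB1 were called, in the same direction, by each test and with any library left out. The count of 4 called G1 regulators was 5 without a filter on low counts, as CCND2 was then tested, and 3 with at least 10 counts in every library, which leaves CDKN2A out. Without the filter 9312 genes were called (4975 higher in EA.hy926, 4337 in HMEC-1), and with at least 10 counts in every library 3255 (1857 and 1398). That filter left 1 of the other CDK inhibitors called. With library totals, 2 genes for ubiquitin ligases, 7 for DNA replication and 6 for mitosis were called. RBL2 had a log2FC of 0.0631 and passed the adjusted p with at least 10 counts in every library, turned to -0.0795 with library totals, and lay between 0.0296 and 0.0710 with 1 library left out, passing without replicate 5 of either line. Directions also turned with library totals for E2F5 (-0.0128) and TPX2 (-0.00340), and for E2F5 with libraries left out (-0.0366 to 0.266, below 0 without EA.hy926 replicate 4 and, at -0.00127, without HMEC-1 replicate 5). Over 41 named genes, 686 of 694 values kept direction and side of the adjusted p threshold, and E2F3 lost the fold threshold without EA.hy926 replicate 5 (-0.986).

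Without exon length, shares in EA.hy926 and HMEC-1 were 96.1% and 48.4% for CCND1, 3.93% and 51.5% for CCND3, 90.2% and 75.8% for CDK4, 24.1% and 49.2% for RB1, 32.8% and 23.9% for RBL1, and 43.1% and 26.9% for RBL2, and CCND2 held 0.0684% in HMEC-1. With canonical transcript lengths they were 92.1% and 31.0% for CCND1, 7.89% and 69.0% for CCND3, 98.3% and 95.1% for CDK4, 29.3% and 20.9% for RBL1, and 45.1% and 27.6% for RBL2, and CCND2 held 0.0286% in HMEC-1. Median log2FC of neighbours with 3 on either side was 0.23 for CCND1, -0.41 for CCND2, -1.08 for CCND3, -0.20 for CDK6, 0.54 for CDKN2A, 0.56 for CDKN1B, -0.53 for RB1, 0.32 for RBL1 and 0.30 for RBL2, so that the median beside CCND2 turned from 0.14. With library totals it was -0.10 for CCND1, 0.000414 for CCND2, -0.92 for CCND3, 1.52 for CDK4, -0.44 for CDK6, -0.0688 for CDKN2A, -0.86 for RB1, 0.36 for RBL1 and -0.11 for RBL2, and those beside CCND1, CDKN2A and RBL2 turned from 0.03, 0.07 and 0.03.

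With the replicate block, 5786 genes and 4 G1 regulators were called. Same-numbered libraries of the lines share only a number, since their deviations correlated at -0.0228 to 0.0389 and 2 of 5 correlated best with their own number.

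Both lines are 1 line each, so p-values measure the spread between cultures of these lines and not between donors, and line and medium cannot be told apart. Transcript starts of CDKN2A cannot be separated in gene-level counts. Genes with few counts, such as CCND2, CDKN1C and E2F5, are limited by depth.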
